A study of Mus musculus with 72 samples.

Results

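The NRF2 antioxidant genes are here Nfe2l2, the gene of the transcription factor NRF2, and 9 antioxidant and detoxification genes listed as its targets. They were chosen by name, with earlier results of these data known, and the 10 rows are part of the 55416 genes in the count table. Counts of called genes set beside the share of all genes are therefore descriptions. All 10 passed the filter on low counts in each tissue, and their lowest count in any library was 26, for Gpx3 in liver. RNA was sequenced from the epididymal white adipose tissue (eWAT), liver and pituitary of 24 male mice, which gave 72 libraries, and the 3 libraries with the same animal number came from 1 mouse. The mice were sighted FVB (FVB.129P2). Dams of FED mice ate freely, and dams of CR20 mice received 20% less food from embryonic day 15 until weaning at postnatal day 21. From 8 weeks of age the male offspring were given food of 10% fat in the CTRL groups and of 45% fat in the HFD groups, and the study text gives 10 weeks on that diet. The 4 groups FED-CTRL, FED-HFD, CR20-CTRL and CR20-HFD held 6 mice each. The labels do not tie mice to litters, so littermates can share a group. Per the study text, the pups of a dam were assigned to either diet, so littermates can also be split between diet groups. The restriction was given to dams, and the tests treat each mouse as independent. The p-values therefore rest on the spread between these mice and not between dams.

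NRF2 is a transcription factor that the adaptor protein KEAP1 marks for degradation in unstressed cells. Oxidants and reactive compounds modify KEAP1, NRF2 then builds up in the nucleus, and with a small MAF protein it binds antioxidant response elements near its target genes. The targets make glutathione, reduce thioredoxin and peroxiredoxins, detoxify quinones, break down haem and couple glutathione to reactive compounds. In fat tissue and liver, these enzymes meet lipid peroxides and their aldehydes. The protein is controlled mainly by its stability, so the transcript of Nfe2l2 is not a measure of NRF2 activity.

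By role and by position in GRCm39, Nfe2l2 (ENSMUSG00000015839) encodes NRF2 and lies on chr2:75504739-75534985, minus strand. Gclc (ENSMUSG00000032350, chr9:77661797-77701770, plus strand) and Gclm (ENSMUSG00000028124, chr3:122039126-122065061, plus strand) encode the catalytic and the modifier subunit of glutamate-cysteine ligase, the first enzyme of glutathione synthesis. Txnrd1 (ENSMUSG00000020250, chr10:82669785-82733546, plus strand) encodes the cytosolic thioredoxin reductase. Srxn1 (ENSMUSG00000032802, chr2:151947436-151957687, plus strand) encodes sulfiredoxin, which repairs overoxidised peroxiredoxins. Nqo1 (ENSMUSG00000003849, chr8:108113835-108129934, minus strand) encodes a quinone reductase. Hmox1 (ENSMUSG00000005413, chr8:75820241-75827217, plus strand) encodes haem oxygenase 1, the inducible enzyme that opens haem. Gsta4 (ENSMUSG00000032348, chr9:78090056-78117763, plus strand) encodes the glutathione transferase that acts on 4-hydroxynonenal, an aldehyde from lipid peroxidation, and Gstm1 (ENSMUSG00000058135, chr3:107919380-107925380, minus strand) a glutathione transferase of the mu class. Gpx3 (ENSMUSG00000018339, chr11:54793279-54802424, plus strand) encodes the secreted glutathione peroxidase of plasma. All 10 are annotated as protein coding. An exon of another gene overlaps Nfe2l2, Gclm, Srxn1, Gstm1 and Gpx3, the last of them an exon of Tnip1 on the opposite strand, and Gstm1 has close paralogs, so reads can have been split there.

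The promoters below belong to 3 of the 4 genes that hold a match to a short form of the antioxidant response element. The match of Nfe2l2 is given in words. RefSeq windows from 250 bases before to 50 bases after the transcript start, in build GRCm38.p6, were found for 7 of the 10 genes in 10 windows. Gclc, Hmox1 and Gsta4 had no entry. The spelling TGACNNNGC was searched on both strands, and TGAGNNNGC was added after the windows had been seen. Matches are in capitals, and a match to the minus strand appears as its reverse complement.
Srxn1, chr2:152105274-152105573, plus strand: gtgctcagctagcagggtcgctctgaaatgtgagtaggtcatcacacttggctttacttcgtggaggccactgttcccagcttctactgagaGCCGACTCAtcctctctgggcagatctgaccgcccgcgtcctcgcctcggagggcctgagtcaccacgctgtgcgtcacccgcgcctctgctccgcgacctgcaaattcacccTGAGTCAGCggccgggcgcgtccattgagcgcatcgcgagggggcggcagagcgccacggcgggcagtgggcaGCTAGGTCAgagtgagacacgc
Gclm, chr3:122245307-122245606, plus strand: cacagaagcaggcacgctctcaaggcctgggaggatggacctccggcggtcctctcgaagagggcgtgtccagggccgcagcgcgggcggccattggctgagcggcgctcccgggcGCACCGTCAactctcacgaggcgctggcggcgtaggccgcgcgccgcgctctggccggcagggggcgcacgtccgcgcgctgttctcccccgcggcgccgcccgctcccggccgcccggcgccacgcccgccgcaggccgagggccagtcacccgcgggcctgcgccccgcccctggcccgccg
Txnrd1, chr10:82858956-82859255, plus strand: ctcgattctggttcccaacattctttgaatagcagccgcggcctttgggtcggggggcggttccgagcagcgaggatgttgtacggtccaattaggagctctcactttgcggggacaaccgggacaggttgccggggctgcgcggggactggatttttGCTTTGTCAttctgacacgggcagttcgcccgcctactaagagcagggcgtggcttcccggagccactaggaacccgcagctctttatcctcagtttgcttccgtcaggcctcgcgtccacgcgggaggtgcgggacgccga
In Srxn1, the matches lie at -158 to -150, at -45 to -37 and at 29 to 37, counted from the start at 1. The match at -45, TGAGTCAGC, holds the AP-1 spelling TGAGTCA. In Gclm the match lies at -134 to -126 and in Txnrd1 at -92 to -84, both on the minus strand. Nfe2l2 holds TGACTCCGC at -240 to -232. In all, 4 of the 7 genes held a match, in 4 of their 10 windows. Of all 32851 windows of 300 bases, 12.4% held TGACNNNGC, 17.6% held TGAGNNNGC and 27.8% either, so a match is a description and not a site.

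Total counts per library ranged from 11589675 to 22364963 in eWAT, from 9842813 to 19928212 in liver and from 18299494 to 27601208 in pituitary. Each tissue was highest in the summed level of its own markers. The summed CPM (counts scaled by library size) of 8 adipocyte genes were 10976 to 45663.9 in eWAT and at most 374.5 elsewhere. Those of 8 hepatocyte genes were 76794 to 121293 in liver and 236 to 5173 in eWAT. Those of 8 anterior pituitary genes were 237615 to 414975 in pituitary. Among the hepatocyte genes, Pck1 had a higher median in eWAT (1860 CPM) than in liver (1746 CPM), and Cyp2e1 had a median of 149 CPM in eWAT. Liver transcripts were far above the eWAT median in at least 1 eWAT library, with Alb at up to 513.5 CPM (median 18.4) and Apoa1 at up to 109.8 CPM (median 0.30). The eWAT of CR20-CTRL mouse 4, CR20-CTRL mouse 5 and CR20-HFD mouse 6 held transcripts from a list of epididymis and testis genes. Of that list, Adam7, Crisp1 and Defb20 reached 2682, 329 and 46 counts in eWAT. Gpx5, Lcn5, Lcn8, Prm1 and Prm2 had at most 3 counts in any eWAT library.

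The eWAT library of FED-HFD mouse 23 stood apart in these genes. Its level was above that of all other 23 mice in 7 of the 10 genes and below all of them in 3, Gsta4, Gstm1 and Gpx3. How many of all genes lay outside the other mice in this library was not counted, so these counts do not set the 10 genes apart. In the liver and the pituitary of the same mouse, all 10 genes lay within the range of the other mice. Its eWAT also had the highest sum of 12 macrophage genes, 10806 CPM, where the other FED-HFD mice started from 2300.5 CPM, and the lowest sum of adipocyte genes, 10976 CPM. In bulk tissue, fewer cells of a type and less RNA per cell cannot be told apart. The fold changes and counts of the eWAT comparisons with FED-HFD are therefore given with and without this library.

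Among FED-CTRL mice, the 10 genes differed in level by tissue. Levels between genes are compared here as CPM per kilobase of the canonical transcript, as means of 6 mice. Gstm1 led in eWAT with 404 and in liver with 1072, and Gpx3 led in pituitary with 300.1. In eWAT, Gpx3 followed with 134, Gsta4 with 31.0, Hmox1 with 21.9, Nfe2l2 with 19.7, Txnrd1 with 16.1, Gclc with 7.49, Srxn1 with 4.44, Gclm with 3.89 and Nqo1 with 1.17. The ranges of neighbours overlapped for 2 of the 9 pairs in that order, Hmox1 with Nfe2l2 and Srxn1 with Gclm. Liver was rich in both glutamate-cysteine ligase subunits, with 74.5 for Gclc and 39.7 for Gclm, between which Txnrd1 (47.6) and Gsta4 (42.5) stood. Below them in liver came Nfe2l2 with 29.1, Hmox1 with 27.5, Srxn1 with 8.15, Nqo1 with 3.02 and Gpx3 with 1.97, and 5 of 9 neighbouring pairs overlapped. In pituitary, Gstm1 came after Gpx3, and the levels below them were 18.5 for Txnrd1, 17.2 for Srxn1, 16.4 for Gsta4, 13.4 for Nfe2l2, 9.64 for Nqo1, 8.33 for Gclc, 5.76 for Hmox1 and 2.28 for Gclm, with 6 of 9 neighbouring pairs overlapping.

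**Figure D1:**
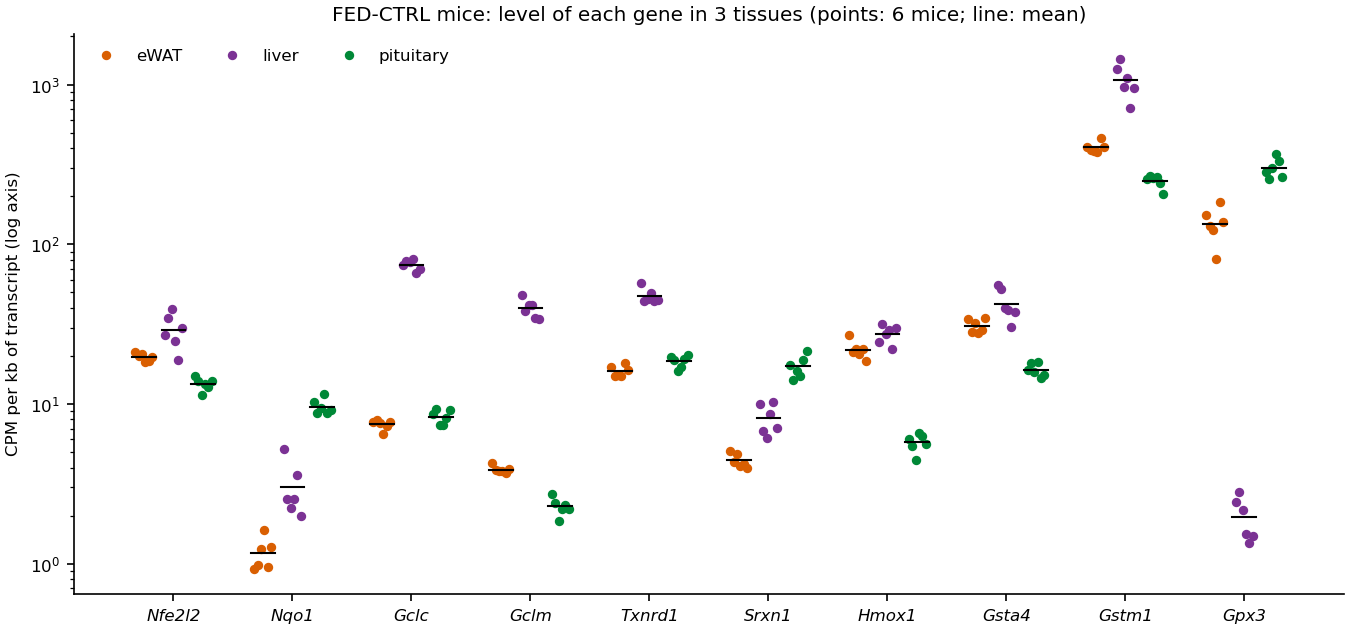
Level of each of the 10 genes in the eWAT, liver and pituitary of the 6 FED-CTRL mice, in CPM per kilobase of canonical transcript on a log axis, with points for mice and lines for means. Gpx3 is lowest of the 10 in liver, at a mean of 1.97, and highest in pituitary, at 300.1.

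In edgeR's quasi-likelihood test over the FED-CTRL libraries, with p-values adjusted over all 17255 tested genes, 10 of 10 genes differed between liver and eWAT (74.0% of all genes), 9 of 10 between pituitary and eWAT (81.0%) and 10 of 10 between liver and pituitary (84.1%). The shares for all genes were nearly as high, so the counts do not set these genes apart. Gclm was 10.2-fold and Gclc 9.95-fold higher in liver than in eWAT (log2 fold change 3.35, SE 0.110, and 3.31, SE 0.0983). Gclm was 17.4-fold higher in liver than in pituitary. Gpx3 was the single gene of the 10 that was lower in liver than in eWAT, by 68.2-fold (adjusted p = 2.08e-17), and it was 152-fold lower in liver than in pituitary. The pituitary exceeded eWAT in Nqo1 (8.22-fold), Srxn1 (3.88-fold), Gpx3 (2.23-fold) and, narrowly, Txnrd1 (log2 fold change 0.20, adjusted p = 0.0477). Txnrd1 lost this call with the mouse as a block (adjusted p = 0.0511), without a filter (0.17), and without mouse 14, 15, 16, 24 or 42 (0.0518 to 0.136). Hmox1 was lower in pituitary than in eWAT (log2 fold change -1.93), as were Gsta4 (-0.92), Gclm (-0.77), Gstm1 (-0.70) and Nfe2l2 (-0.56). Gclc gave 0.15 there (adjusted p = 0.122). Hmox1 was 1.25-fold higher in liver than in eWAT (adjusted p = 0.0128), a call that was lost without mouse 15, 24 or 42 (adjusted p 0.0524 to 0.0768) or without a filter (0.111). The median of all genes was -0.10 for liver against eWAT and -0.13 for liver against pituitary. RNA was extracted from liver with a column kit and from eWAT and pituitary with RNAzol, so tissue and extraction cannot be told apart for liver.

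In eWAT of FED offspring, Hmox1 and Srxn1 were higher and Gsta4 was lower on the high-fat diet than on the control diet, and the other 7 genes did not pass the test. Called genes were therefore 3 of 10, 2 higher and 1 lower, where 10.5% of all 15964 tested genes were called (7.81% higher and 2.71% lower). Without FED-HFD mouse 23, 1 of 10 was called, Hmox1, and 5.44% of all genes. Of the 10 log2 fold changes, 8 were above 0, with a median of 0.11 against 0.00 over all genes. Without mouse 23, 6 were above 0 and the median was 0.01, so the excess above 0 rested on that library.

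Haem oxygenase transcripts (Hmox1) in FED-CTRL eWAT had a lowest, median and highest level of 5.20, 5.41 and 5.75 log2 CPM. In FED-HFD they were 5.69, 6.15 and 8.66. The groups overlapped in 1 mouse, since 5 of 6 FED-HFD mice were above every FED-CTRL mouse. The fold change was 2.91 (log2 1.54, SE 0.360, adjusted p = 0.00828; exact permutation p = 0.00433). Without mouse 23 the highest FED-HFD level was 6.55 and the fold change 1.62 (log2 0.70, SE 0.146, adjusted p = 0.00625). With only these 2 groups in the fit the adjusted p was 0.055.

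Sulfiredoxin transcripts (Srxn1) had levels of 5.16, 5.27 and 5.54 log2 CPM in FED-CTRL and 5.44, 5.60 and 7.88 in FED-HFD. The groups overlapped, and 3 of 6 FED-HFD mice were above every FED-CTRL mouse. The fold change was 1.98 (log2 0.99, SE 0.311, adjusted p = 0.0435; exact permutation p = 0.0173). Without mouse 23 it was 1.20 (log2 0.26, SE 0.107, adjusted p = 0.181), so the size of the change rested on that library. The call was also lost without any 1 of the 6 FED-CTRL mice. Txnrd1, the partner enzyme that keeps thioredoxin reduced, gave a log2 fold change of 0.55 (adjusted p = 0.126), and 0.14 without mouse 23.

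Gsta4 was the one gene of the 10 whose FED groups did not overlap. The share of all genes without overlap was not counted. By edgeR, 25.7% of all genes had an unadjusted p under 0.05 in this comparison. Levels of Gsta4 were 6.21, 6.34 and 6.50 log2 CPM in FED-CTRL and 3.90, 5.72 and 6.06 in FED-HFD. All 6 FED-HFD mice lay below all 6 FED-CTRL mice, with the smallest exact permutation p that 6 against 6 can give, 0.00216. The log2 fold change was -0.75 (SE 0.240, adjusted p = 0.0455). Without mouse 23 the groups still did not overlap, and the log2 fold change was -0.56 (SE 0.176) with an adjusted p of 0.0631. The call was also lost without any 1 of the 6 FED-CTRL mice and without FED-HFD mouse 12 or 13. Over all alternatives the adjusted p ranged from 0.000789 to 0.0928. Gpx3, the secreted peroxidase, had levels of 8.17, 8.89 and 9.35 log2 CPM in FED-CTRL and 7.31, 8.29 and 8.68 in FED-HFD. That difference of -0.66 (SE 0.241) missed the threshold (adjusted p = 0.0805), with 3 of 6 FED-HFD mice below every FED-CTRL mouse. Without mouse 23 the difference in Gpx3 was -0.53 (SE 0.231, adjusted p = 0.212). Over the alternatives its adjusted p ranged from 0.0107 to 0.212, and Gpx3 was called in limma voom with quality weights, in DESeq2 and without FED-CTRL mouse 24 or FED-HFD mouse 40.

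The remaining 5 genes had adjusted p-values of 0.291 to 0.943 in this comparison. The log2 fold change was 0.26 for Gclm and 0.11 for Gclc, the ligase subunits, 0.10 for Nfe2l2, 0.07 for Gstm1 and 0.04 for Nqo1. Without mouse 23 the values were 0.01 for Gclm, -0.05 for Gclc, 0.01 for Nfe2l2, 0.21 for Gstm1 and -0.33 for Nqo1, with adjusted p-values of 0.45 to 0.975. Gclc and Nqo1 thus changed sign. Median levels of Nfe2l2 were 6.47 log2 CPM in FED-CTRL and 6.50 in FED-HFD, with a highest FED-HFD value of 6.96 in mouse 23. For Nqo1 the FED-HFD median was 1.74 log2 CPM against 1.91 in FED-CTRL, and mouse 23 reached 3.11.

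**Figure D2:**
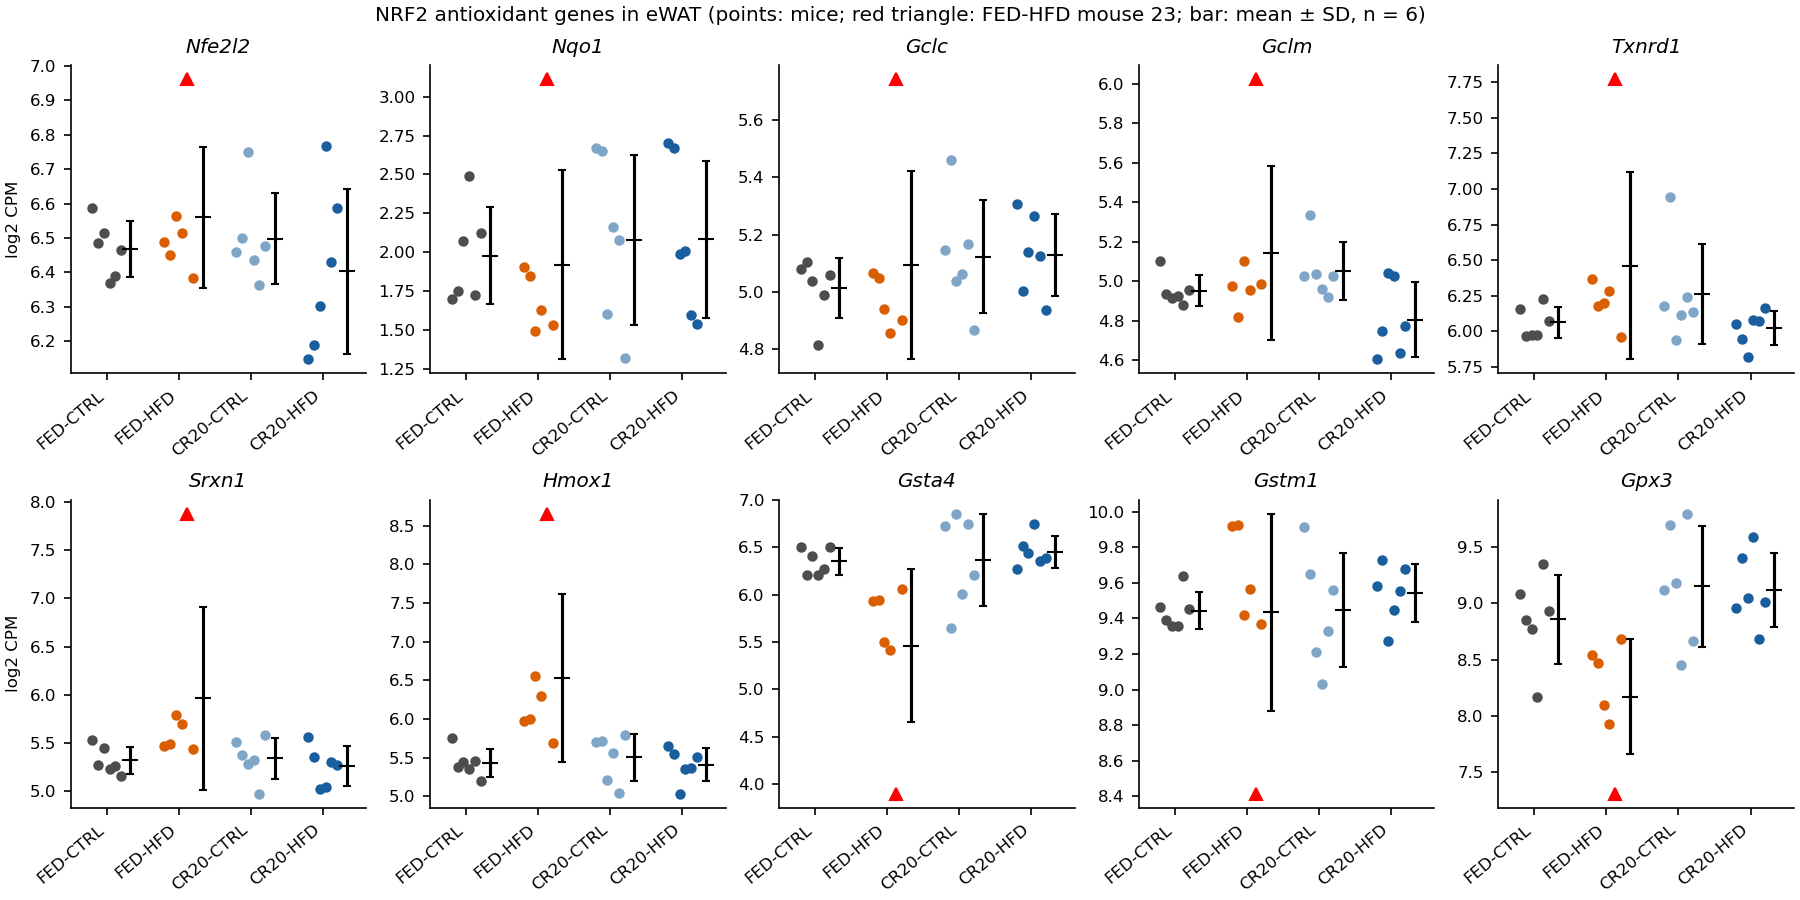
Level of each of the 10 genes in eWAT, in log2 CPM, for the 4 groups of 6 mice, with points for mice, bars for mean ± SD and a red triangle for FED-HFD mouse 23. The triangle is above all other mice in 7 genes and below all in Gsta4, Gstm1 and Gpx3, and all FED-HFD points of Gsta4 lie below the FED-CTRL points.

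On the high-fat diet, eWAT of CR20 offspring had less Hmox1 and Srxn1 and more Gpx3 and Gsta4 than eWAT of FED offspring. This comparison shares its FED-HFD mice with the one above, so the values are given side by side and not as separate support. Of the 10 genes, 4 were called, 2 higher and 2 lower, where 14.9% of all genes were called (4.89% higher and 10.0% lower). Without mouse 23, 3 of 10 were called, Hmox1, Gpx3 and Gsta4, and 8.46% of all genes. The median log2 fold change of the 10 genes was -0.07 against 0.02 over all genes, and -0.08 against 0.03 without mouse 23.

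Hmox1 in CR20-HFD eWAT had a lowest, median and highest level of 5.03, 5.44 and 5.65 log2 CPM, all below the lowest FED-HFD value of 5.69. The log2 fold change was -1.56 (SE 0.361, adjusted p = 0.00573; exact permutation p = 0.00216), and without mouse 23 it was -0.71 (SE 0.146, adjusted p = 0.00319). The groups did not overlap in either case. Srxn1 levels in CR20-HFD were 5.02, 5.29 and 5.57 log2 CPM. The log2 fold change of Srxn1 was -1.04 (SE 0.312, adjusted p = 0.0274), and without mouse 23 -0.31 (SE 0.107, adjusted p = 0.0736). That call was also lost without CR20-HFD mouse 31 or 32.

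Gpx3 levels in CR20-HFD eWAT were 8.68, 9.03 and 9.59 log2 CPM, and the lowest of them was just above the highest FED-HFD mouse. The fold change was 1.87 (log2 0.91, SE 0.242, adjusted p = 0.0145), and without mouse 23 it was 1.72 (log2 0.78, SE 0.232, adjusted p = 0.038). Gsta4 in CR20-HFD had levels of 6.27, 6.41 and 6.74 log2 CPM, again above every FED-HFD mouse. Its fold change was 1.81 (log2 0.86, SE 0.240, adjusted p = 0.0193), and without mouse 23 it was 1.59 (log2 0.67, SE 0.176, adjusted p = 0.0183). Gclm and Txnrd1 gave log2 fold changes of -0.39 and -0.59 with adjusted p-values of 0.0783 and 0.0821. Without mouse 23 these were -0.15 (adjusted p = 0.315) and -0.17 (adjusted p = 0.43). For Nfe2l2 the value was -0.15, for Nqo1 0.11, for Gstm1 0.04 and for Gclc 0.01. Without mouse 23 these became -0.05 for Nfe2l2, 0.48 for Nqo1, -0.10 for Gstm1, which changed sign, and 0.18 for Gclc, with adjusted p-values of 0.227 to 0.78.

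**Figure D3:**
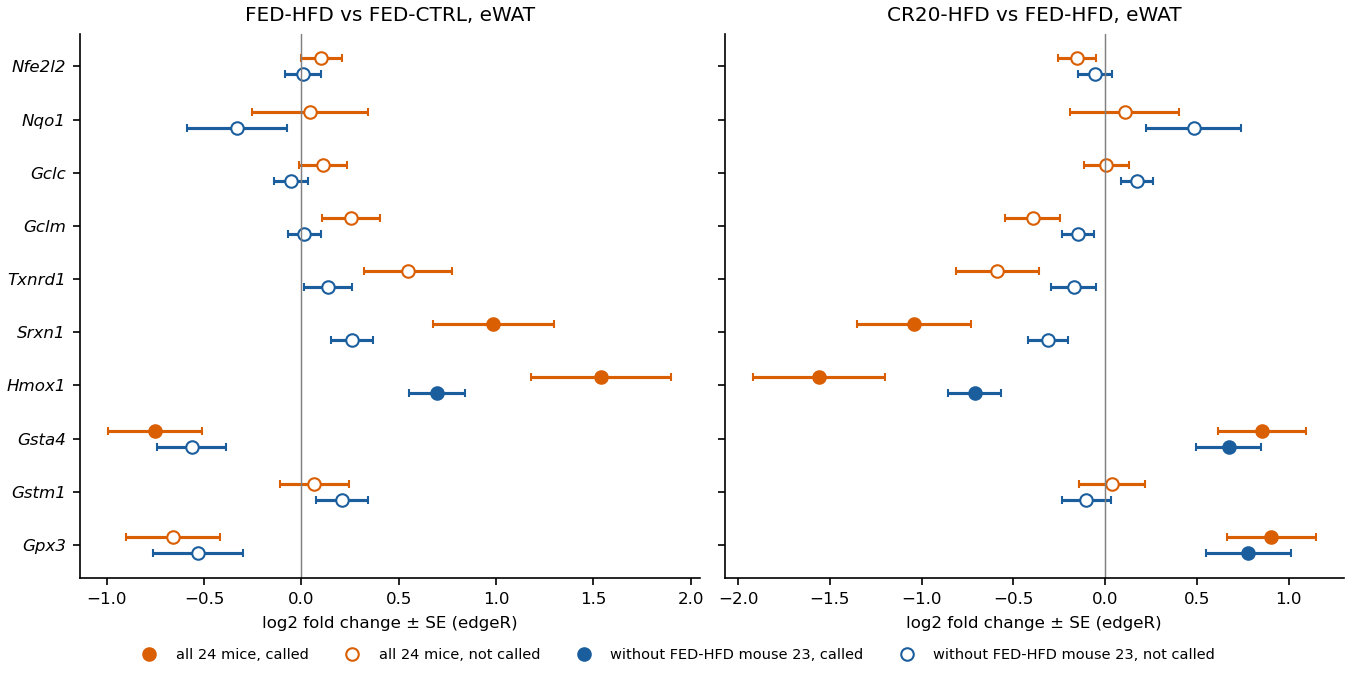
Log2 fold change ± SE of each of the 10 genes in eWAT by edgeR, for FED-HFD against FED-CTRL and CR20-HFD against FED-HFD, with all mice and without FED-HFD mouse 23. Hmox1 moves from 1.54 to 0.70 and Srxn1 from 0.99 to 0.26 in the first comparison when that mouse is left out.

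Within CR20 offspring, no gene of the 10 was called between CR20-HFD and CR20-CTRL eWAT, where 0.0% of all genes were called. The log2 fold changes ran from -0.27 for Txnrd1 to 0.07 for Gstm1, with adjusted p-values of 0.895 to 1.0, and 962 genes of all had an unadjusted p under 0.05. For CR20-CTRL against FED-CTRL, 0 of 10 and again 0.0% of all genes were called, with 1180 genes at an unadjusted p under 0.05. All 10 log2 fold changes were above 0 there, from 0.03 for Srxn1 to 0.33 for Gpx3 (adjusted p 0.897 to 0.996). The median over all genes was also above 0, at 0.02 against 0.10 for the 10 genes.

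Whether the response of eWAT to the high-fat diet differed between CR20 and FED offspring was tested as an interaction. None of the 10 genes was called by edgeR (2.29% of all genes were), and 5 of 10 had an unadjusted p under 0.05, as did 18.2% of all genes. The log2 difference between the responses was -1.65 for Hmox1 (SE 0.503, adjusted p = 0.081), -1.07 for Srxn1 (adjusted p = 0.205), -0.82 for Txnrd1 (adjusted p = 0.183), -0.50 for Gclm (adjusted p = 0.221) and 0.78 for Gsta4 (adjusted p = 0.225). Hmox1 passed without mouse 23, with a smaller difference of -0.79 (SE 0.203, adjusted p = 0.0469), where 1.73% of all genes were called. It also passed in DESeq2 and without FED-HFD mouse 10, 11 or 40. For the other genes the difference without mouse 23 was -0.33 for Srxn1, -0.39 for Txnrd1, -0.24 for Gclm and 0.61 for Gsta4, with adjusted p-values of 0.249 to 0.383.

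Macrophage markers moved with Hmox1 in eWAT. Macrophages, which break down haem from engulfed red cells, are known to express Hmox1. The summed level of the 12 markers had a range of 1523.91 to 2222.61 CPM in FED-CTRL, 2300.5 to 10806 CPM in FED-HFD, 1177.51 to 2551.54 CPM in CR20-CTRL and 1263.48 to 2172.8 CPM in CR20-HFD. Of these markers, 8 of 12 were called higher in FED-HFD than in FED-CTRL (6 without mouse 23) and 10 of 12 lower in CR20-HFD mice than in FED-HFD mice (8 without mouse 23). The adipocyte sum was 30258.5 to 37021.2 CPM in FED-CTRL, 10976 to 32951.3 in FED-HFD, 13929 to 45663.9 in CR20-CTRL and 34241.5 to 39533 in CR20-HFD. Of its 8 genes, none was called in FED-HFD against FED-CTRL by edgeR (10.5% of all genes were). In CR20-HFD, 1 was higher than in FED-HFD, as were 4.89% of all genes. The part of these cell types in the changes of Hmox1, Srxn1, Gsta4 and Gpx3 was not tested.

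Across the 24 mice, with group means subtracted, Hmox1 followed the summed macrophage markers in eWAT. Pearson's r was 0.89 (permutation p = 0.00013, adjusted p = 0.0015 over the 15 relations computed) and Spearman's rho 0.78 (adjusted p = 0.0012). Without the 2 mice farthest from the median r was 0.72 (adjusted p = 0.0081), and without mouse 23 it was 0.70 (adjusted p = 0.00952). In liver the same relation had r = 0.05 and in pituitary r = 0.25, neither past the threshold.

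Among pairs of these genes, Txnrd1 and Srxn1 were correlated across mice in liver (r = 0.74, permutation p = 0.0002, adjusted p = 0.0015, rho = 0.78, adjusted p = 0.00165, and r = 0.71 without the 2 farthest mice, adjusted p = 0.0234). In eWAT that pair had r = 0.81 (permutation, adjusted p = 0.158), which was 0.12 without mouse 23. The ligase subunits Gclc and Gclm had r = 0.75 in eWAT (permutation, adjusted p = 0.0741) and 0.31 without mouse 23. Gsta4 and Gstm1 were related in pituitary (r = 0.55, permutation p = 0.00958, adjusted p = 0.0479, rho = 0.60, adjusted p = 0.0189), but not past the threshold without the 2 farthest mice (r = 0.53, adjusted p = 0.117). Nfe2l2 and Nqo1 had r = -0.34 in liver, 0.06 in pituitary and -0.02 in eWAT, none past the threshold. In eWAT it was -0.51 without mouse 23 (permutation, adjusted p = 0.152) and -0.51 without the 2 farthest mice (adjusted p = 0.17).

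**Figure D4:**
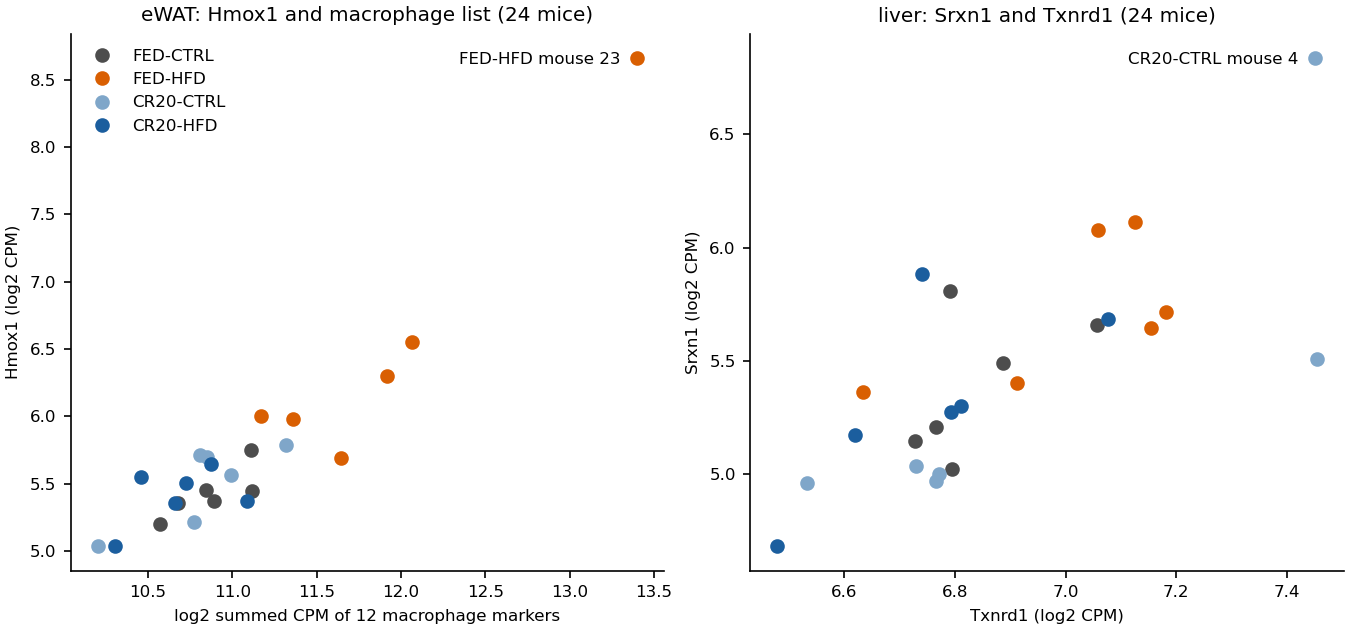
Levels in 24 mice, each point a mouse coloured by group: on the left Hmox1 in eWAT (log2 CPM) against the log2 summed CPM of 12 macrophage markers, on the right Srxn1 against Txnrd1 in liver (both log2 CPM). The points show the levels before group means were subtracted for r (0.89 and 0.74), and FED-HFD mouse 23 lies at the top right on the left.

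In liver, no gene of the 10 passed the test in any comparison. Between FED-HFD and FED-CTRL, 0.109% of all 13787 tested genes were called, and between CR20-HFD and CR20-CTRL 0.515%. In the other comparisons and in the interaction 0.0% were called, while 299 genes for CR20-CTRL against FED-CTRL, 493 for CR20-HFD against FED-HFD and 242 for the interaction had an unadjusted p under 0.05. Of the 10 log2 fold changes between FED-HFD and FED-CTRL, 9 were above 0, with a median of 0.28 against 0.00 over all genes. Between CR20-HFD and CR20-CTRL, 5 were above 0 and 5 below, with a median of 0.11 against -0.004 over all genes.

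Gsta4 had the smallest adjusted p of the 10 genes in liver, and its sign was opposite to that in eWAT of the FED mice. Its lowest, median and highest levels were 5.60, 5.91 and 6.37 log2 CPM in FED-CTRL and 6.11, 6.40 and 6.56 in FED-HFD, with overlap (log2 fold change 0.35, SE 0.123, adjusted p = 0.497; exact permutation p = 0.0281). In CR20-CTRL they were 5.85, 5.95 and 6.16 log2 CPM and in CR20-HFD 6.27, 6.30 and 6.52. The CR20 groups did not overlap, with the same difference of 0.35 (SE 0.123, adjusted p = 0.328; exact permutation p = 0.00216). The difference between tissues was not tested.

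Hmox1 in liver had median levels of 5.01 log2 CPM in FED-CTRL, 5.32 in FED-HFD, 5.03 in CR20-CTRL and 5.31 in CR20-HFD. The diet difference was 0.43 in FED offspring (adjusted p = 0.599) and 0.38 in CR20 offspring (adjusted p = 0.468), and the groups overlapped in both. Gclc, the catalytic ligase subunit, gave 0.41 in FED offspring (adjusted p = 0.514; exact permutation p = 0.0216) and -0.10 in CR20 offspring. Gpx3, at only 26 to 47 counts in the lowest libraries of the CR20 groups, gave 0.66 for CR20-HFD against CR20-CTRL (adjusted p = 0.412). Gclm, with overlapping groups, gave -0.34 for CR20-HFD against FED-HFD (adjusted p = 1.0; exact permutation p = 0.0108).

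In pituitary, too, no gene of the 10 passed the test, and 0.0% of all 16657 tested genes were called in any comparison. At an unadjusted p under 0.05 there were 1606 genes for FED-HFD against FED-CTRL, 1212 for CR20-HFD against CR20-CTRL, 2887 for CR20-CTRL against FED-CTRL, 1127 for CR20-HFD against FED-HFD and 1833 for the interaction. Pooled over the 4 groups, the median SD of the 10 genes was 0.128 log2 CPM in pituitary, against 0.274 in liver and 0.416 in eWAT. The eWAT value includes FED-HFD mouse 23. Within FED-CTRL mice, the order of eWAT and pituitary differed by gene. There Gclm had an SD of 0.077 in eWAT and 0.186 in pituitary, and Gpx3 0.395 and 0.189.

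Nfe2l2 had the smallest adjusted p of the 10 in pituitary, for CR20-CTRL against FED-CTRL. Its levels were 5.50, 5.78 and 5.92 log2 CPM in FED-CTRL and 5.73, 6.01 and 6.31 in CR20-CTRL, and 4 of 6 CR20-CTRL mice were above every FED-CTRL mouse. The log2 fold change was 0.27 (SE 0.0829, adjusted p = 0.119; exact permutation p = 0.026). Gclc in the same comparison gave 0.21 (adjusted p = 0.172; exact permutation p = 0.0108), with 5 of 6 CR20-CTRL mice above every FED-CTRL mouse. Txnrd1 gave 0.17 (adjusted p = 0.232) and Srxn1 0.52 (adjusted p = 0.235). Srxn1 varied widely in CR20-CTRL, from 6.82 to 8.45 log2 CPM, where FED-CTRL mice lay between 6.85 and 7.45. Between CR20-HFD and CR20-CTRL, Gclc gave -0.19 (adjusted p = 0.623; exact permutation p = 0.00433).

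**Figure D5:**
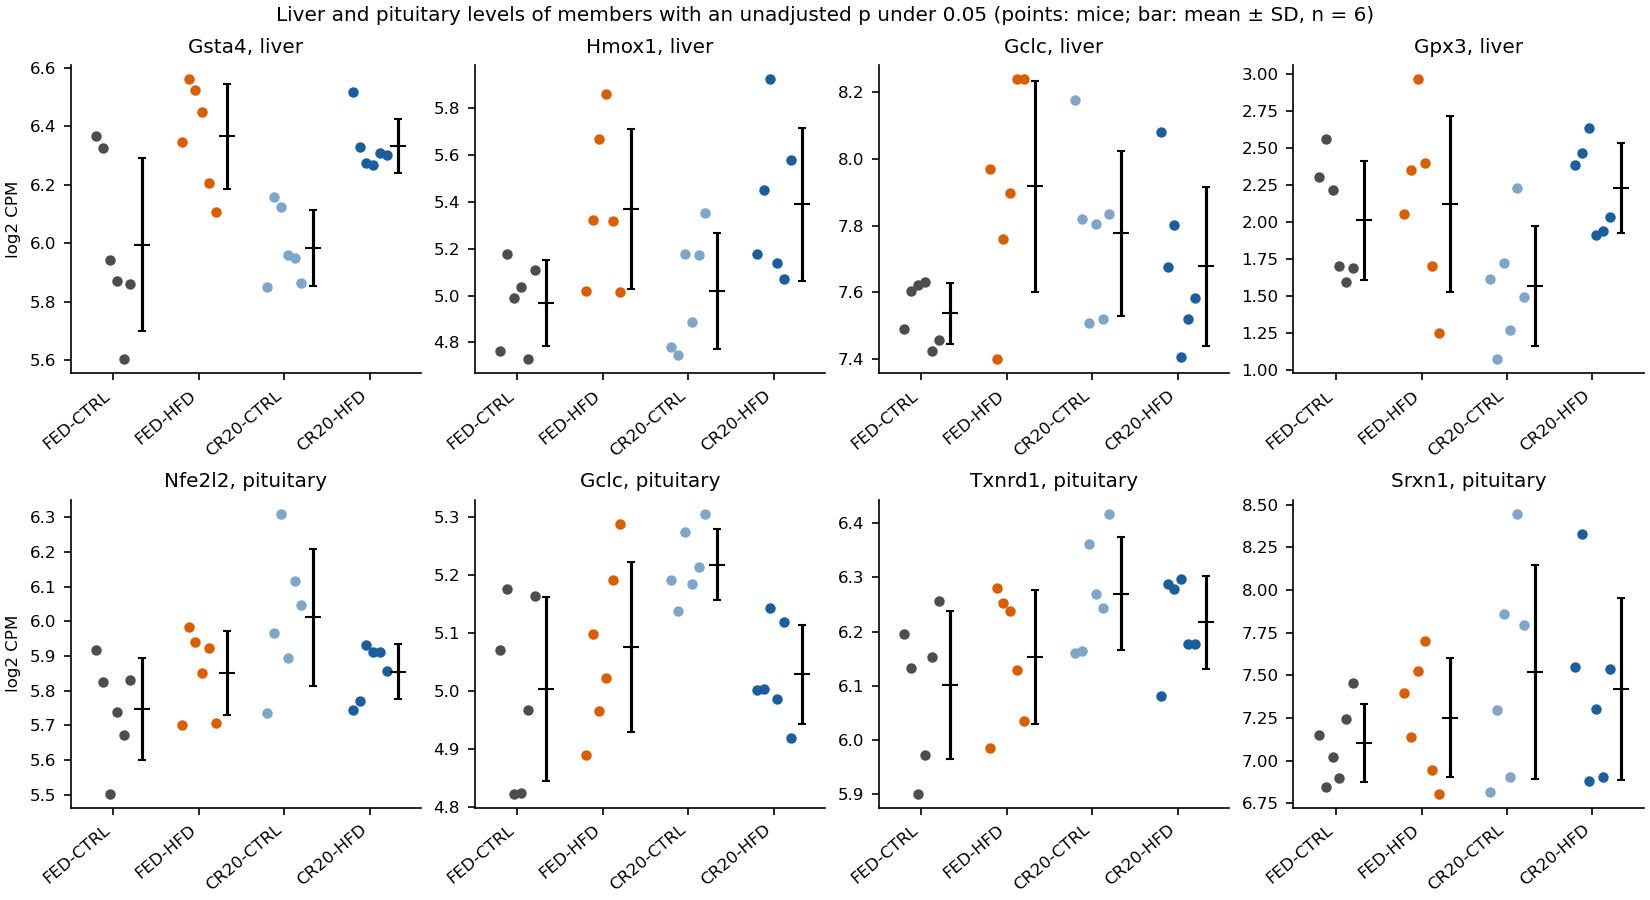
Levels in log2 CPM of Gsta4, Hmox1, Gclc and Gpx3 in liver and Nfe2l2, Gclc, Txnrd1 and Srxn1 in pituitary, each with an unadjusted p under 0.05 in a comparison, with points for mice and bars for mean ± SD of 6 mice. Groups overlap in most panels, and Gsta4 in the liver of CR20-HFD mice lies above CR20-CTRL.

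Around these genes, 85 further genes of the pathway were listed in 8 groups, of which 80 were tested in eWAT. Between FED-HFD and FED-CTRL eWAT 3 rose and 4 fell, 8.75% of the 80 against 10.5% of all genes. Without mouse 23 1 rose and 2 fell, 3.75% against 5.44%, namely Gstp3, Gsta3 and Txnrd3. Ftl1, the ferritin light chain that stores iron set free from haem, rose (log2 fold change 0.80, adjusted p = 0.0367), as did the glutathione peroxidase Gpx1 (0.52, adjusted p = 0.0466) and the transferase Gstp3 (3.90, adjusted p = 0.0251). Without mouse 23 the values of Ftl1 and Gpx1 were 0.35 (adjusted p = 0.146) and 0.32 (adjusted p = 0.203). Of the 12 fits that left out a mouse, 8 lost the call of Ftl1 and 9 that of Gpx1. Gstp3 rested on few counts, a median of 5 in FED-CTRL and 19 in FED-HFD with a highest of 212 in mouse 10. Its call was lost without that mouse and without FED-CTRL mouse 14, 41 or 42 (adjusted p up to 0.139). In liver, Gstp3 had a median of 26306 counts in FED-CTRL and 26036.5 in FED-HFD. The part of liver transcripts in the eWAT values of Gstp3 was not tested. The genes that fell were the transferases Gsta3 (-1.03, adjusted p = 0.00621) and Gstt3 (-0.57, adjusted p = 0.0289), the thioredoxin reductase Txnrd3 (-0.58, adjusted p = 0.00389) and Tkt (-1.15, adjusted p = 0.0205), the transketolase of the pentose phosphate pathway. Tkt and Gstt3 lost their calls without mouse 23, at -1.07 (adjusted p = 0.0605) and -0.55 (adjusted p = 0.0602). In all, Tkt lost its call in 3 and Gstt3 in 6 of the 12 fits that left out a mouse. Gsta3 and Txnrd3 kept theirs with each mouse left out in turn. None of 9 listed NRF2 regulators and none of 7 genes of glutathione synthesis and recycling was called by edgeR.

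Between CR20-HFD and FED-HFD eWAT, 5 of the 80 genes were higher and 2 lower, 8.75% against 14.9% of all genes. Without mouse 23, 2 were higher and 2 lower, 5.0% against 8.46%, namely Gstt1, Gstt3, Ftl1 and Gstp3. The higher ones were the transferases Gstt1 (0.91, adjusted p = 0.00921), Gstt3 (0.69, adjusted p = 0.0065) and Gstt2 (0.66, adjusted p = 0.02), Txnrd3 (0.41, adjusted p = 0.0227) and the superoxide dismutase Sod1 (0.54, adjusted p = 0.0274). Ftl1 was lower (-0.90, adjusted p = 0.0163), and so was Gstp3 (-3.51, adjusted p = 0.031), which is named here after its value was seen. Without mouse 23, Ftl1 moved to -0.44 (adjusted p = 0.0422). Gstp3 was no longer called in 6 of the 12 fits that left out a mouse, among them that without FED-HFD mouse 10. Of the same 12 fits, Sod1 lost its call in 3, Txnrd3 in 4 and Gstt2 in 2. Gstt1, Gstt3 and Ftl1 kept theirs. In the interaction Gstp3 was the one gene called (-6.26, adjusted p = 0.0377). Its CR20-CTRL counts had a median of 7.5 and a highest of 127 in mouse 5, and its interaction call was lost in 17 of the 24 fits that left out a mouse, among them those without FED-HFD mouse 10 or CR20-CTRL mouse 5. In liver, 1 of 79 listed genes was called lower in FED-HFD than in FED-CTRL, Me1, which supplies NADPH (-1.43, adjusted p = 0.0119), and it was also lower in CR20-HFD than in CR20-CTRL (-2.08, adjusted p = 6.05e-05). The first of these calls was lost without FED-HFD mouse 12 (adjusted p = 0.0502). Me1 had a median of 7.72 log2 CPM in FED-CTRL liver, 6.12 in FED-HFD, 8.03 in CR20-CTRL and 6.01 in CR20-HFD, and neither pair of diet groups overlapped. Abcc3, an exporter of conjugates, was higher in CR20-HFD than in CR20-CTRL liver (0.89, adjusted p = 0.0431), a call lost in 11 of the 12 fits that left out a mouse. These were 1.27% and 2.53% of the 79 genes in FED and CR20 offspring, against 0.109% and 0.515% of all genes. In pituitary none of 80 was called by edgeR. Of 82 listed genes tested in FED-CTRL mice, 51 were higher and 24 lower in liver than in eWAT (91.5% called, against 74.0% of all genes), 12 higher and 53 lower in pituitary than in eWAT (79.3% against 81.0%), and 59 higher and 18 lower in liver than in pituitary (93.9% against 84.1%).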

How the data were processed

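Counts per Ensembl gene for 72 libraries were deposited by the authors without normalization. Per the study's methods and the submitters' processing notes, libraries were made with a TruSeq Stranded Total RNA kit (a TruSeq Stranded mRNA kit is also named in the methods), and reads were checked with FastQC, trimmed with Trimmomatic, aligned with STAR to GRCm39 and counted with featureCounts (Subread). Tool versions and the strand setting are not given in the sources used here. Of 55416 gene rows, 54749 were matched by identifier to a name in the GENCODE M39 annotation of GRCm39. Depth was 9842813 to 27601208 counts per library, and no 2 libraries of a group were identical.

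The 24 libraries of a tissue were fitted with edgeR 4.0.16 in R 4.3.3 (filterByExpr, TMM, estimateDisp, glmQLFit and glmQLFTest), with a mean per group. P-values were two-sided and adjusted by Benjamini-Hochberg over all tested genes, and a gene was called at an adjusted p under 0.05. The SE is the absolute log2 fold change divided by the square root of F. Levels are log2 CPM, scaled by TMM with 2 as the prior count. Single genes were also tested by an exact two-sided permutation test over the 924 divisions of 12 mice. The 18 FED-CTRL libraries were fitted with a mean per tissue. Relations were tested with 100000 permutations within groups. The tests were tested on simulated data.

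The members and gene lists were chosen with earlier results of these data known. All 10 members are named, and from each pathway list at most 3 called genes with the smallest p per comparison. Alternatives were limma 3.58.1 voom with and without quality weights (the former is the study's test), DESeq2 1.42.0, other scaling, filters, call rules, covariates and samples, each mouse left out, and the mouse as a block. The 3 tissues of a number come from 1 mouse per the labels. In FED-CTRL mice, deviations from the tissue means correlated by -0.0583 to 0.300 between tissues of a mouse. The relations without FED-HFD mouse 23 were added after seeing the data.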

Additional observations from a re-analysis of the deposited data

Results flagged for a closer look

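Of 120 groups of 6 mice (10 genes, 3 tissues, 4 groups), 16 held a mouse whose gap to the nearest other mouse was a larger share of the group's range than Dixon's critical value for 6 samples. Chance alone flags about 1 in 20 groups.

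In 9 of the 16 the mouse was FED-HFD mouse 23 in eWAT. Its level was the highest of its group for Hmox1 (8.66 log2 CPM), Srxn1 (7.88), Txnrd1 (7.77), Nfe2l2 (6.96), Gclm (6.02), Gclc (5.74) and Nqo1 (3.11). It was the lowest for Gsta4 (3.90) and Gstm1 (8.42). The same library had the highest macrophage and the lowest adipocyte marker sum of its group, and the part of these in its values was not tested.

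In eWAT, CR20-CTRL mouse 5 was far above its group for Gclm (5.34) and Txnrd1 (6.95), and this library held transcripts from the epididymis and testis list. CR20-CTRL mouse 33 was high for Nfe2l2 (6.75), and FED-CTRL mouse 14 for Gclm (5.10).

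In liver, CR20-CTRL mouse 4 was far above its group for Srxn1 (6.84), CR20-CTRL mouse 5 far below for Gstm1 (8.41), and CR20-HFD mouse 6 above for Gsta4 (6.52).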

How the results depend on the processing

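Over the 61 log2 fold changes of the 10 genes with an unadjusted p under 0.05, tissue comparisons included, none of 1090 alternative values changed sign. Of the 119 others, 49 changed sign in 207 of 2720 alternative values, all with an absolute log2 fold change of at most 0.23. For the 32 of the 61 within a tissue, 725 of 768 alternative values kept their direction and side of the threshold. The count of genes called between FED-HFD and FED-CTRL eWAT (3) became 1 with an absolute log2 fold change of at least 1, without a filter or with ranges of animal numbers as a covariate, and 0 with only the groups compared. Leaving out a mouse gave 1 to 4, with 1 without FED-CTRL mouse 14, 15, 16, 41 or 42 or FED-HFD mouse 23, and 4 without FED-HFD mouse 40. Between CR20-HFD and FED-HFD (4) it became 2 under that fold minimum and 2 with only the groups compared, and 3 to 5 with a mouse left out. The interaction in eWAT (0) gave 1 in DESeq2 and 0 to 1 with a mouse left out. In pituitary, CR20-CTRL against FED-CTRL gave 0 to 1, the 1 being Nfe2l2 without CR20-CTRL mouse 4 (log2 fold change 0.32, adjusted p = 0.0478). Among FED-CTRL tissues, a fold minimum left 6 genes for liver against eWAT and 4 for pituitary against eWAT, and leaving out a mouse gave 9 to 10 and 8 to 9. With the mouse as a block, the counts were 10, 8 and 10, with Txnrd1 lost and no other call changed. The relation of Gsta4 and Gstm1 in pituitary had r = 0.53 without the 2 farthest mice and 0.53 without mouse 23. The cause of these shifts was not tested. Over all genes, calls ranged over the alternatives other than leaving out a mouse from 750 to 3291 between FED-HFD and FED-CTRL eWAT, from 877 to 3296 between CR20-HFD and FED-HFD, from 0 to 824 in the interaction and from 0 to 350 in pituitary between CR20-CTRL and FED-CTRL. DESeq2 gave no adjusted p for Srxn1 in eWAT.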
